A study of Mus musculus with 3 samples.

Results

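Dense clusters of BACH2 peaks were examined in mouse induced regulatory T cells (iTreg cells), the regulatory T cells that form in culture when CD4+ T cells are activated in the presence of TGF-β. Neighbouring intervals of the BACH2 peak list were joined where the gap between them was at most 10 kb, and regions of 5 or more peaks were kept. Regions that reached into chromosome 13 between 21.8 and 23.9 Mb were left out. This gave 90 clusters with 529 peaks, which are 5.79% of the 9133 BACH2 peaks and 1.35% of the 6690 regions formed by joining. The clusters were chosen by the positions of BACH2 peaks, so the number, size and spacing of their peaks are a description only. The positions of JunD peaks and the strength of BACH2 peaks were not used in the choice.

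The study mapped BACH2 and JunD by chromatin immunoprecipitation and sequencing (ChIP-seq), with an input library beside them. Each of the 3 libraries stands alone in its group and was labelled as wild type C57BL/6 mice aged 8 to 12 weeks, with spleen as the tissue. CD4+ T cells were sorted and cultured for 4 days on plates coated with antibodies to CD3ε and CD28, with TGF-β in the medium, and all 3 libraries share this treatment. Whether cells of several mice were pooled is not given in the sources used here. The labels list a pair of catalogue numbers for the JunD antibody without saying which was used. The lists hold no expression values, so the labelled cell type could not be set against marker genes, and no input signal was used here.

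BACH2 represses transcription and belongs to the basic leucine zipper proteins. It pairs with small Maf proteins and is known for restraining effector programmes in T cells, which helps regulatory T cells to form and persist. JunD is a subunit of AP-1, the transcription factor that follows T cell activation, and it binds DNA motifs closely related to those of BACH2, so the factors can meet at the same elements. Regions where many binding sites crowd together are often described at genes that define a cell's identity, where several enhancers lie close to each other. The lists name no genes, and no gene or sequence of the mm9 build was used here, so clusters are identified below by their position in mm9, counted from 1.

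Each BACH2 peak carries the caller's fold enrichment over background and its −log10 q, which grows as a peak stands out more clearly from background. Each JunD peak carries a single score from its caller, on a scale that is not stated, and a higher score is read here as a stronger peak. Quintiles split a list into 5 equal parts by −log10 q (BACH2) or score (JunD). Strengths of the factors are on different scales and are not compared in size.

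The clusters were small and mostly open ground between peaks. Of the 90, 48 held 5 peaks, 23 held 6, 9 held 7, 6 held 8, 2 held 9 and 2 held 11. Their span had a median of 17376 bp (interquartile range 12046.5 to 23722 bp), from 4921 to 47440 bp. Together they spanned 1687 kb, of which BACH2 peaks covered 10.3%. Adjacent summits lay a median of 2997 bp apart (interquartile range 1234 to 5841.5 bp), with 19.8% of the 439 neighbouring pairs within 1 kb and 32.3% over 5 kb apart. Clusters occurred on 18 chromosomes, most often on chromosome 2 (10 clusters), chromosome 11 (9) and chromosome 9 (8), and none lay on chromosome 18 or the X chromosome.

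JunD met BACH2 in most clusters but seldom at every peak. Across the whole BACH2 list, 29.3% of peaks were overlapped by a JunD peak by at least 1 bp. In the clusters, 224 of 529 peaks were overlapped, or 42.3% (Wilson 95% interval 38.2 to 46.6, which covers the counting of peaks only). At least 1 peak was overlapped in 81 of 90 clusters, against 81.7% of regions of 4 peaks and 70.6% of regions of 3, which offer fewer peaks to be met. The number overlapped was 0 in 9 clusters, 1 in 15, 2 in 27, 3 in 21, 4 in 5, 5 in 9, 6 in 3 and 9 in 1. JunD overlapped 50% or more of the peaks in 34 clusters (37.8%), against 54.8% of regions of 4 and 37.1% of regions of 3. Regions of 4 reach that share with 2 overlapped peaks, and clusters of 5 need 3. Every peak was overlapped in 3 clusters (3.33%), against 5.22% of regions of 4 and 10.7% of regions of 3. With 1 library per factor, no difference in overlap could be tested against replicate error, and peaks of 1 cluster are not replicates.

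**Figure D1:**
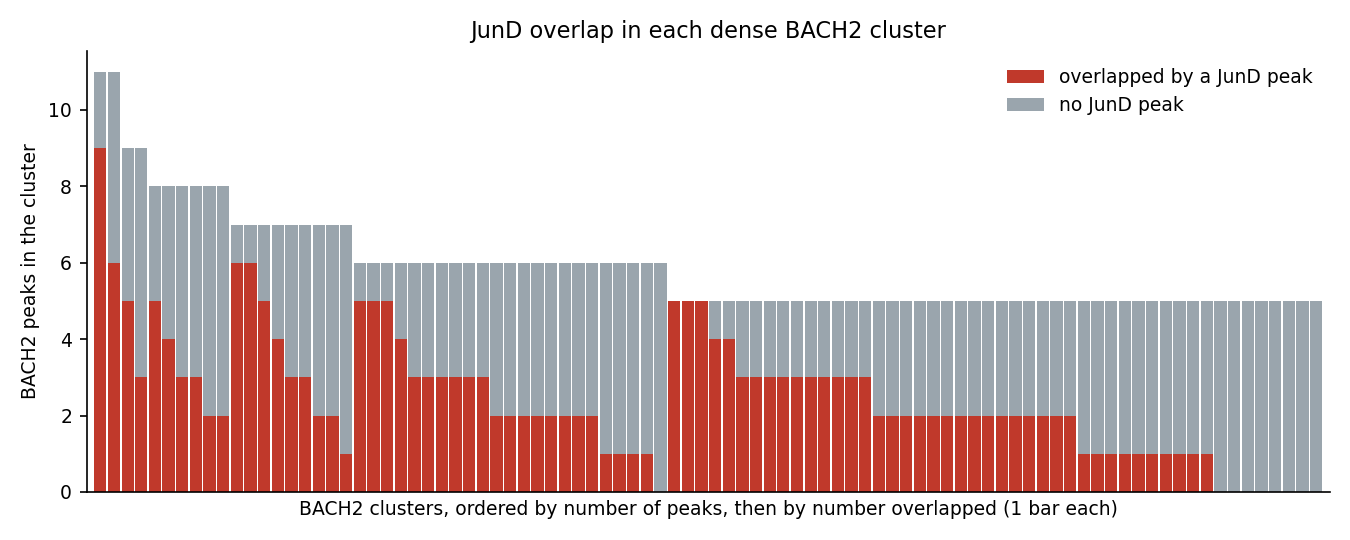
BACH2 peaks per cluster (vertical axis) for the 90 clusters, 1 bar each, ordered by number of peaks and then by number overlapped, with peaks overlapped by JunD in red and other peaks in grey. Red reaches the top of the bar in 3 clusters and is absent from 9.

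The cluster on chromosome 2 from 11538509 to 11585948 was the longest, at 47440 bp, and had 9 of its 11 BACH2 peaks overlapped, the highest number in any cluster. Its strongest BACH2 peak (11563974 to 11564628) had a −log10 q of 62.1, was enriched 9.03-fold and ranked 654 in the list. That peak and the next one, with a −log10 q of 9.86, lay under a single JunD peak of 4219 bp whose score of 1136 ranked 9 among 5237. Peaks of 34.9 and 37.4 followed further along, under JunD peaks scoring 625 and 385. The remaining peaks were weaker, with a −log10 q between 2.76 and 17.2. The 2 without JunD lay side by side near the start of the cluster, at 6.57 and 7.83. This cluster held 11 JunD peaks in all, 3 of them without BACH2, so both factors crowded here, and strong and weak BACH2 peaks alike met JunD.

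The other cluster of 11 peaks, on chromosome 7 from 82716918 to 82757405, showed a different arrangement. JunD overlapped 6 of its peaks, but the strongest (82732590 to 82733044, −log10 q 45.6, 10.5-fold) was not among them, and the nearest JunD centre was 1578 bp from its summit. The peak of 40.9 at the start of the cluster had a JunD peak centred 12.5 bp from its summit, with a score of 243. Of the weaker peaks with JunD, those of 8.65 and 8.44 met JunD peaks that scored 66.8 and 50.9, below the median of 81.6 in the JunD list.

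On chromosome 10, a cluster of 9 peaks (18887701 to 18929951) had JunD at 3. Its strongest peak (18896083 to 18896452) was enriched 23.2-fold, with a −log10 q of 85.0, and stood 4465 bp from the nearest JunD centre. The peaks with JunD had values of 8.27, 13.4 and 15.0. On chromosome 6, the other cluster of 9 (94611228 to 94635213) had JunD at 5, among them its strongest peaks, with a −log10 q of 44.9 and 43.3, and its peaks of 24.2, 4.97 and 4.42. The presence of JunD thus did not follow BACH2 strength in the same way in these clusters.

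**Figure D2:**
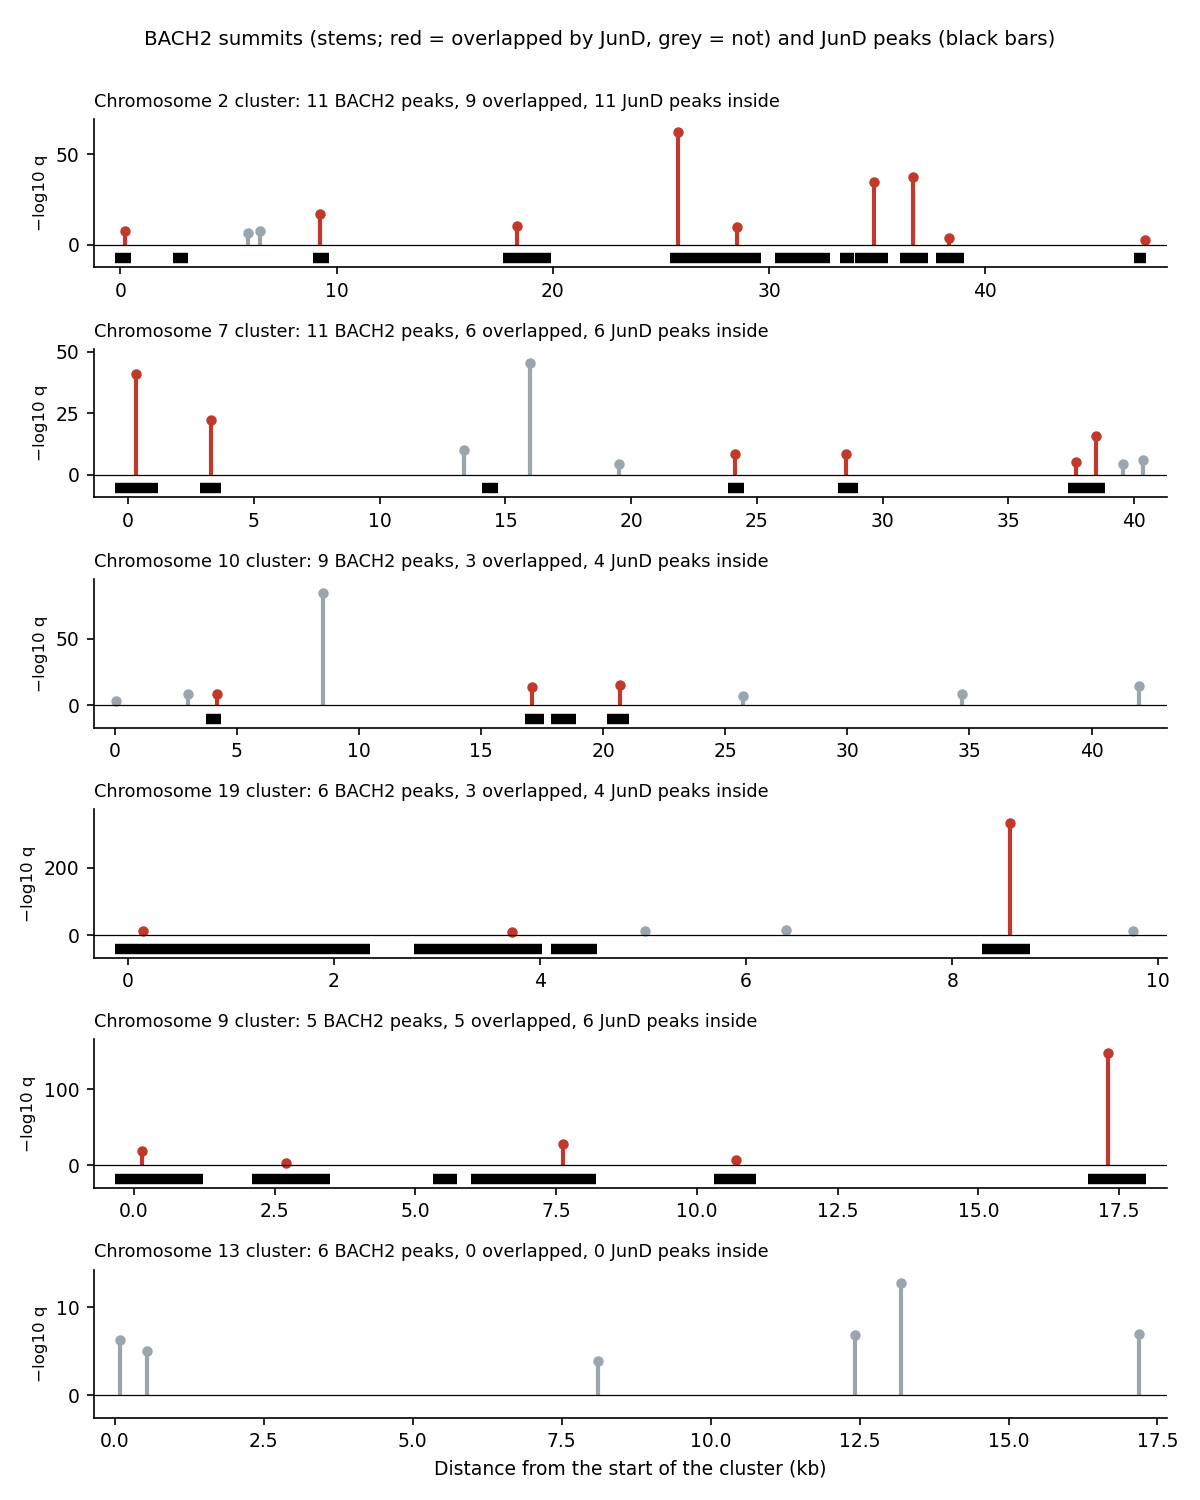
Maps of 6 clusters, with distance from the start of the cluster in kb on the horizontal axis and −log10 q of each BACH2 peak as a stem at its summit (red where JunD overlaps, grey where not), and JunD peaks as black bars under the line. Vertical scales differ between maps, and the tall grey stems on chromosomes 7 and 10 are the strongest peaks of those clusters, with no JunD peak over them.

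Of the 6 clusters with 8 peaks, JunD overlapped 5 on chromosome 13 (30824691 to 30853089), 4 on chromosome 2 (11091603 to 11116660), 3 on chromosome 9 (63559546 to 63595898), 3 on chromosome 3 (105603083 to 105628912), 2 on chromosome 1 (163680734 to 163718694) and 2 on chromosome 19 (32337218 to 32350451). In the chromosome 13 cluster, 4 of the 5 lay under 1 JunD peak of 1803 bp with a score of 78.8, so the 5 overlaps stand for 2 JunD peaks. The chromosome 1 cluster had both of its overlapped peaks, of 29.7 and 8.16, under 1 JunD peak with a score of 302, and its strongest peak, of 71.6, lay 5397 bp from the nearest JunD centre. The cluster on chromosome 19 held 4 peaks of the strongest quintile of the whole BACH2 list. Only 1 of those 4, at 52.9, met JunD, while those of 70.5, 32.2 and 41.4 did not. On chromosome 2, the strongest peak (11095315 to 11095780, 20.1-fold, −log10 q 112) met a JunD peak of modest score, 71.8.

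JunD overlapped every BACH2 peak in 3 clusters, each of 5 peaks. On chromosome 9 (107198007 to 107215540), the BACH2 peaks had a −log10 q of 18.2, 2.85, 28.3, 6.29 and 148 in order along the chromosome, and they met 5 separate JunD peaks scoring 494, 278, 353, 102 and 245. On chromosome 11 (87256790 to 87285124), all 5 BACH2 peaks were weak, at 7.02, 10.7, 5.47, 3.54 and 6.29, while 4 of the 5 JunD peaks scored between 401 and 555 and the other 76.8. The third cluster was of another kind. On chromosome 17 (39980491 to 39985568), all 5 BACH2 peaks lay under 1 JunD peak of 6054 bp, and their fold enrichment of 1.43 to 2.02 reached down to the lowest of the BACH2 list. Whether enrichment this low reflects binding was not tested, so this cluster counts among the 3 by position only. Without this cluster, 41.8% of clustered peaks were overlapped (219 of 524).

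No peak was overlapped in 9 clusters, which held 46 peaks. Their median −log10 q was 9.14, against 11.7 in all clusters, and 5 of the 9 contained a peak of the strongest BACH2 quintile. On chromosome 10 (67106250 to 67121437), 3 strong peaks with a −log10 q of 71.9, 48.1 and 37.9 lay at least 32930.5 bp from any JunD centre. On chromosome 1 (38711406 to 38716326), where 5 peaks filled 4921 bp, the shortest span of all, the strongest had a −log10 q of 98.7 and was enriched 20.9-fold, with the nearest JunD centre 3664.5 bp from its summit. The cluster on chromosome 13 (102464210 to 102481525) was weak throughout, from 3.90 to 12.8, with every summit at least 85780.5 bp from a JunD centre. A pair of others lay on chromosome 2, from 83535448 to 83550253 and from 172217814 to 172230841. The remaining ones were found at 100240671 to 100248202 on chromosome 3, at 36483140 to 36497120 on chromosome 8, at 18836671 to 18844857 on chromosome 10 and at 5324130 to 5337774 on chromosome 11. In 8 of the 9, no JunD centre lay within 10 kb of any BACH2 summit.

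Overlap with JunD was more frequent in regions of several BACH2 peaks than at single ones, and most of the step lay below the size of a cluster. JunD overlapped 23.6% of 5157 single peaks (22.4 to 24.7), 31.8% of peaks in regions of 2 (29.8 to 33.9), 39.5% in regions of 3 (36.3 to 42.7) and 40.7% in regions of 4 (36.3 to 45.2). In clusters the share was 38.8% for regions of 5 (32.8 to 45.0), 41.3% for 6 (33.4 to 49.6), 50.8% for 7 (38.8 to 62.7) and 47.7% for 8 or more (37.6 to 58.0). Counting intervals overlapped from regions of 3 upward. Regions of 4 and clusters of 5, which lie on either side of the threshold, had nearly the same share.

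**Figure D3:**
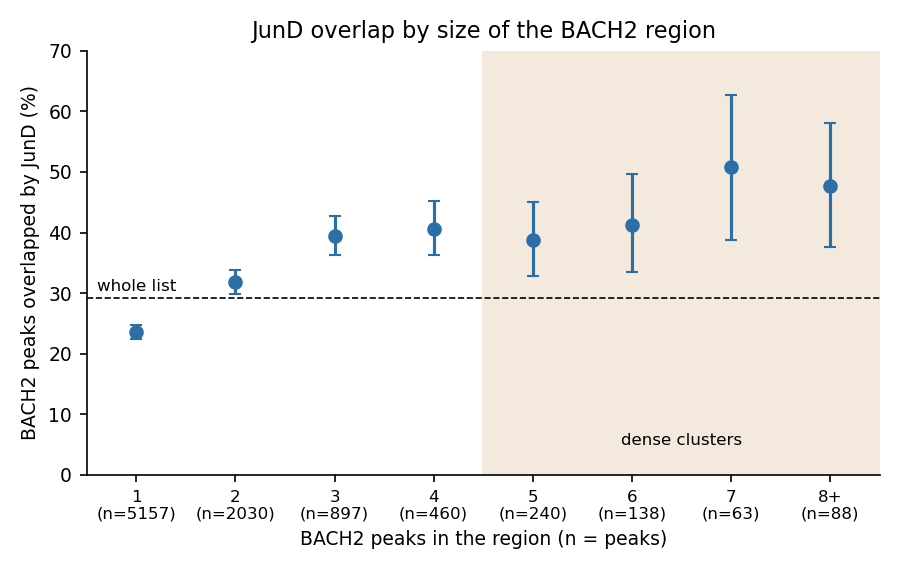
Share of BACH2 peaks overlapped by JunD (vertical axis, percent) against the number of BACH2 peaks in the region, with Wilson 95% intervals as bars and the whole-list share of 29.3% as a dashed line. The share is 23.6% for single peaks and between 38.8% and 50.8% in the shaded sizes, which are the clusters.

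The excess over single peaks depended on how overlap was defined. JunD peaks were broad inside the clusters (median 702 bp, and 547 bp elsewhere), and 57 of 232 (24.6%) exceeded 1 kb, against 8.55% elsewhere. Of the 224 overlapped peaks, 71 (31.7%) lay under such a wide JunD peak, against 10.9% of overlapped peaks outside the clusters. Without JunD peaks over 1 kb, the share was 28.9% in clusters, 28.9% in regions of 2 to 4 and 22.5% at single peaks. When 50% of both peaks had to be shared, it was 14.9%, 17.2% and 14.0%. With the BACH2 summit required within 100 bp of the JunD centre, the values were 24.8%, 22.7% and 18.7%. All BACH2 peaks were kept in these settings. A BACH2 peak met only by a JunD peak over 1 kb therefore counted as without JunD in the first of them. Wide JunD peaks also meet the other rules less easily. The lower shares thus partly follow from JunD width and do not show that JunD is absent at those peaks. The median distance from BACH2 summit to JunD centre was 78 bp in clusters (interquartile range 36.5 to 195 bp) and 53.5 bp elsewhere (23.5 to 117 bp).

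Clustered peaks were about as strong as BACH2 peaks in general by −log10 q, but leaned to lower fold enrichment. Their median −log10 q was 11.7 (interquartile range 6.29 to 23.4), against 11.8 in the whole list (6.93 to 23.8), and their median fold enrichment was 5.14 against 5.75. The strongest quintile of −log10 q held 20.2% of them and the weakest 23.6%. With the list split by fold enrichment instead, the strongest quintile held 90 of the 529 clustered peaks and the weakest 175. Clustered peaks were slightly wider, at a median of 286 bp against 267 bp. Among peaks of the strongest quintile of −log10 q, JunD overlapped 49.5% in clusters, 49.4% in regions of 2 to 4 and 37.4% of single peaks. In the weakest quintile the shares were 36.0%, 26.9% and 17.4%. When single peaks were weighted to the clusters' mix of −log10 q quintiles, 23.6% were overlapped, and weighting by quintiles of both −log10 q and width gave 25.4%. For regions of 2 to 4, the weighting by both gave 35.7%.

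**Figure D4:**
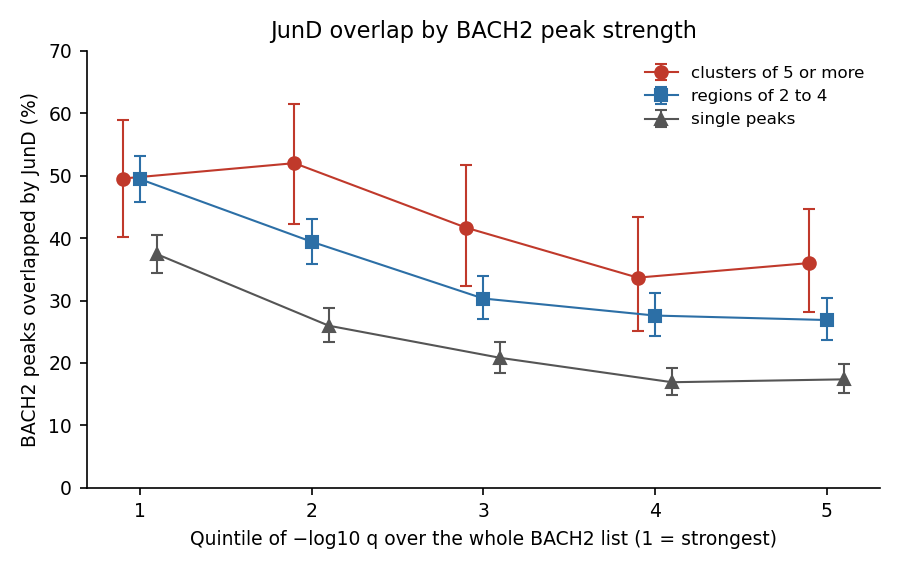
Share of BACH2 peaks overlapped by JunD (vertical axis, percent) in quintiles of −log10 q over the whole list, for clusters (circles), regions of 2 to 4 (squares) and single peaks (triangles), with Wilson 95% intervals. Single peaks lie lowest in every quintile, and clusters and regions of 2 to 4 coincide in the strongest quintile at 49.5% and 49.4%.

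Most clusters mixed strong and weak BACH2 peaks. Peaks of the strongest quintile of the list numbered none in 26 clusters, 1 in 31 and 2 or more in 33. Of the 64 clusters with such a peak, 53 also held a peak of the weakest quintile. Since 20.2% of clustered peaks fell in the strongest quintile and 23.6% in the weakest, much mixing would arise in any groups of this size. No baseline was computed, so these counts are a description only. In 58 of 90 clusters the second strongest peak had at least 50% of the −log10 q of the strongest. The strongest peak of each cluster had a median −log10 q of 48.2 (interquartile range 26.3 to 79.3) and the other 439 peaks a median of 9.19 (5.87 to 17.1), a difference that picking the strongest peak brings about in part. Clusters held 6 of the 100 strongest BACH2 peaks, close to their 5.79% of all peaks. The strongest peak of the whole list (5849740 to 5850590 on chromosome 19, 57.6-fold, −log10 q 332) lay in a cluster of 6 (5841772 to 5851656), where the second strongest peak had a −log10 q of 16.6. It met a JunD peak of score 75.5, while its neighbours of 13.4 and 7.93 met JunD peaks scoring 372 and 294.

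JunD lay over the strongest peak of a cluster more often than over the others. It overlapped the strongest peak in 52 of 90 clusters, or 57.8% (47.5 to 67.5), against 172 of the 439 remaining peaks, or 39.2% (34.7 to 43.8). From the second to the fifth strongest, the shares were 43.3%, 35.6%, 42.2% and 36.7%, without a steady order. Single peaks weighted to the same quintiles of −log10 q as these strongest peaks had 33.7%, a weighting that leaves out width. The strongest peaks were also wider, at a median of 444 bp against 264 bp for the other clustered peaks. Among clustered peaks in the widest quintile of the list, 58.2% were overlapped. Strength and width were not separated here. In the 15 clusters with 1 overlapped peak, that peak was the strongest in 2. Other strong peaks with JunD reached a −log10 q of 161 (35356463 to 35357169 on chromosome 17), 153 (150815396 to 150815920 on chromosome 7) and 146 (129379769 to 129380424 on chromosome 8), with enrichments of 33.2-fold, 22.5-fold and 17.3-fold. On chromosome 7, a neighbour of nearly equal strength (150814453 to 150814972, 21.6-fold, 145) had none, with the nearest JunD centre 948 bp from its summit. That cluster, at 6 peaks in 6623 bp, and the one on chromosome 8 (129371506 to 129380424, 7 peaks in 8919 bp) were among the 5 with most peaks per kb, as was a weaker one on chromosome 2 (32348914 to 32355671), whose median −log10 q was 2.92.

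Pooled over all clusters, the overlapped share was higher among inner peaks and beside other overlapped peaks. JunD overlapped 47.0% of the 349 inner peaks (41.8 to 52.2) and 33.3% of the 180 peaks at the ends of clusters (26.9 to 40.5), while the median −log10 q was 11.7 in both. In 102 of 439 neighbouring pairs both peaks were overlapped, in 184 only 1 was, and in 153 neither. A neighbour of an overlapped peak was itself overlapped in 52.6% of cases, and a neighbour of a peak without JunD in 37.6%. Leaving out the 25 pairs under 1 shared JunD peak, the first share was 45.6%. Clusters differed in their share overlapped, which by itself can place like peaks side by side in pooled pairs. Larger clusters also give more inner peaks, and the share was 47.7% in those of 8 or more against 38.8% in those of 5. An effect of position within a cluster was not tested. Of the 305 peaks without JunD, 75.7% had a JunD centre within 10 kb, against 6.93% of single peaks without JunD. The joining rule bears on this contrast, so it is a description only. Clustered peaks have other BACH2 peaks nearby, many of them overlapped. Single peaks have no other BACH2 peak within 10 kb, so few JunD peaks that meet BACH2 can lie near them. JunD peaks that meet no BACH2 peak are not limited in this way. How much of the contrast the rule sets was not tested.

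From the JunD side, clusters held 232 JunD peaks, counted by their centres. Of all JunD peaks 48.8% were overlapped by BACH2, and of those in clusters 199, or 85.8% (80.7 to 89.7), against 47.1% elsewhere (45.7 to 48.5). Since BACH2 peaks are dense in the clusters by choice, this share is partly fixed by the rule. JunD peaks in clusters also scored higher, with a median of 98.5 (interquartile range 68.1 to 168) against 81.3 elsewhere (61.9 to 123). The difference was smaller among JunD peaks that met BACH2. Counted once per overlapped BACH2 peak, their median score was 109 in clusters and 97.5 elsewhere. Whether the higher scores go beyond the larger share overlapped was not tested. The strongest JunD quintile held 32.8% of them, and 13 of the 100 strongest JunD peaks lay in clusters, which held 4.43% of the whole list. In the strongest quintile of JunD score, BACH2 overlapped 92.1% in clusters and 66.0% elsewhere. In the weakest, it overlapped 75.0% and 31.9%. The 33 JunD peaks without BACH2 had a median score of 70.6, against 105 for the others.

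**Figure D5:**
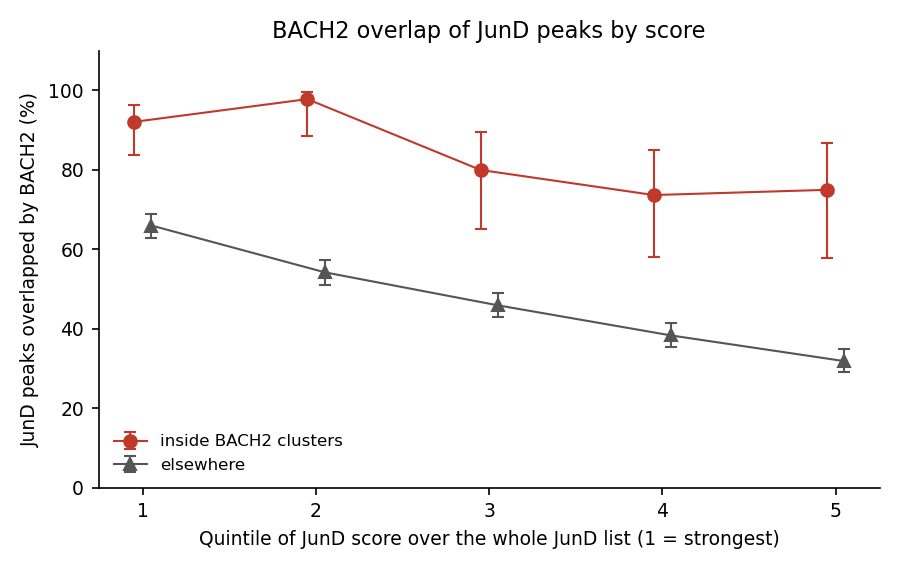
Share of JunD peaks overlapped by BACH2 (vertical axis, percent) in quintiles of JunD score over the whole list, inside BACH2 clusters (circles) and elsewhere (triangles), with Wilson 95% intervals. The share inside clusters is 75.0% in the weakest quintile and 92.1% in the strongest, against 31.9% and 66.0% elsewhere.

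JunD peaks were counted per cluster as well. There were none in 9 clusters, 1 in 18, 2 in 25, 3 in 14, 4 in 12 and 5 or more in 12. Joining JunD peaks by the same gap gave 56 groups of 5 or more outside the stretch of chromosome 13 left out, and 14 BACH2 clusters held a JunD peak of such a group. The same was not counted for smaller BACH2 regions, so whether 14 is many is not known. JunD peaks without BACH2 outnumbered the others in 2 clusters. One, on chromosome 4 (155382448 to 155406478), had 9 JunD peaks, 5 of them without BACH2, although 5 of its 6 BACH2 peaks met JunD. The other, on chromosome 19 (5787154 to 5823887), had 6 JunD peaks, 4 without BACH2. Its strongest BACH2 peak, at 51.7 and 17.2-fold, lay 5546.5 bp from the nearest JunD centre. Single JunD peaks overlapped more than 1 clustered BACH2 peak in 19 cases, with 5 the most. Such cases were not counted outside the clusters.

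Across clusters, the highest BACH2 strength told little of the highest JunD score or of the share of peaks overlapped. Spearman's rho between the highest −log10 q of BACH2 and the highest JunD score was 0.017 over the 81 clusters that held a JunD peak, and between the highest −log10 q and the percentage of peaks overlapped it was 0.0061 over 90. These are descriptions over clusters that come from the same 2 libraries, and the highest values of a cluster can belong to different peaks. Peak by peak, overlapped clustered peaks had a median −log10 q of 14.1, against 9.99 for those without JunD. The strongest JunD peak in a cluster (146090094 to 146096584 on chromosome 1, score 1738, rank 5) covered 6491 bp and met BACH2 peaks of 18.7 and 10.4. On chromosome 4 both factors were strong, with a BACH2 peak of 139 (32336711 to 32338352, 18.9-fold) under a JunD peak that scored 750 (rank 26).

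The limit of 5 peaks did not fall at a visible break. Just inside it, the 48 regions of 5 peaks had a median span of 13956.5 bp and a median highest −log10 q of 42.3. Just outside, the 115 regions of 4 peaks had 10770 bp and 43.9. Among regions of 5, the strongest peaks had a −log10 q of 161 (at 35337507 to 35357169 on chromosome 17), 148 (at 107198007 to 107215540 on chromosome 9) and 134 (at 90472902 to 90487919 on chromosome 1). Among those of 4, they had 196 (at 89377711 to 89395077 on chromosome 8), 183 (at 5460083 to 5468173 on chromosome 15) and 171 (at 65472004 to 65489751 on chromosome 18).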

How the data were processed

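BACH2 and JunD ChIP-seq peak lists of 1 library each were analysed. The input library was not analysed here. Per the submitters' processing notes, Bowtie 0.12.9 was used and the build is mm9 (NCBIM37). Which caller version and control were used, and whether samples were pooled, is not given in the sources used here. The BACH2 list the authors deposited follows the narrowPeak layout, which holds fold enrichment, −log10 of the p-value and of the q-value, and the summit for each peak. Its integer score repeats the −log10 q and was not used. The deposited JunD list gives 1 score per peak, whose scale is not stated, with peak names that begin with MACS. These scores are the authors' and are compared only between peaks of the same list. No read counts are in the lists, so depth is unknown.

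Peaks were joined as the report states. A peak was overlapped when 1 bp or more was shared. The JunD centre decided whether a JunD peak lay in a cluster. Quintile 1 is the strongest. Shares have Wilson 95% intervals. No test was made, because each factor had 1 library. Clusters named are the 10 with most peaks, those with all or none overlapped (at most 8 each), 5 each by density, span, strongest peak and JunD number, and 3 on each side of the limit of 5 peaks. The ninth cluster with none overlapped, the strongest JunD peak and the chromosome 4 cluster it is set beside were named after their values were seen. The 2 clusters with more JunD peaks without BACH2 than with it were among the 5 by JunD number. They were singled out for that contrast after their values were seen. Members, lists and alternatives were chosen with earlier results of these data known. A RefSeq gene table of GRCm38 was at hand and was not used, because the peaks are in mm9. Planned searches for motifs and genes were therefore not run. The joining and overlap steps were tested on simulated data and checked against bedtools. The tools were pandas 2.3.3, numpy 2.4.6, scipy 1.17.1 and matplotlib 3.10.9 in Python 3.11.15.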

Additional observations from a re-analysis of the deposited data

How the results depend on the processing

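JunD overlapped a larger share of clustered than of single BACH2 peaks under all 14 alternatives tried, by 0.895 to 21.8 percentage points against 18.8 as reported. Of the 14 clustered shares, 9 lay within the reported interval. The alternatives reuse the same peaks and are not independent. Regions of 2 to 4 had 17.2% when 50% of both peaks had to be shared, above the clusters. Without JunD peaks over 1 kb they had 28.9%, as clusters did. In the other settings where both were computed, clusters were higher. The number of clusters, and of those with 50% or more of their peaks overlapped, was 29 and 9 with a gap of 5 kb, 203 and 78 with 20 kb, 205 and 97 with at least 4 peaks, and 42 and 19 with at least 6. Joining only the stronger 50% of BACH2 peaks left 6 clusters, 2 of them with 50% or more overlapped, a median −log10 q of 24.9 and 92.9% of JunD peaks overlapped. The clustered share, the clusters with 50% or more overlapped and the share of JunD peaks overlapped were 14.9%, 3 and 34.1% when 50% of both peaks had to be shared, 24.8%, 12 and 56.5% with summit and centre within 100 bp, and 27.4%, 15 and 92.6% with the stronger 50% of JunD peaks. Without JunD peaks over 1 kb, the clustered share was 28.9% and 16 clusters had 50% or more overlapped. With every peak set to 200 bp, 32.1% of clustered BACH2 and 72.4% of JunD peaks were overlapped. These last alternatives, those without JunD peaks over 2 kb and that without the chromosome 17 cluster were chosen after the data were seen. Keeping the chromosome 13 stretch gave 94 clusters and 45.2%. The motif alternative was not run. No paired analysis was possible because there was 1 library for each factor. A peak without JunD is one where no JunD peak passed the caller's threshold, and the depth behind that threshold is unknown.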

Other observations

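Some clusters were close neighbours that the 10 kb gap kept apart. The gap to the next cluster was at most 100 kb in 4 cases. On chromosome 12, clusters at 88142119 to 88152038 and 88164709 to 88175738 lay 12670 bp apart, with JunD at 1 of 5 peaks in each. On chromosome 19, the cluster with the strongest BACH2 peak of the list lay 17884 bp after the one at 5787154 to 5823887, with JunD at 3 of 6 and 2 of 7 peaks. On chromosome 10, a cluster with none of its 5 peaks overlapped (18836671 to 18844857) lay 42843 bp before the cluster of 9 peaks with 3 overlapped. On chromosome 4, the cluster at 32336231 to 32351260, with JunD at 3 of 6 peaks, lay 66752 bp before another of 6 peaks (32418013 to 32439174) with JunD at 1. These cases were chosen after their values were seen.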
